A study of Canis lupus familiaris with 2 samples.

Results

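The dopamine system of the normal canine neuroretina was examined through 9 genes: *TH* and *DDC* (synthesis), *SLC18A2* and *SLC6A3* (transport), *DRD1*, *DRD2* and *DRD4* (receptors), *CALY* (a vesicle protein linked to dopamine receptors) and *NR4A2* (a transcription factor). They were chosen by name, with earlier results of these data known, and are 9 of the 34981 genes counted in dog N350. In dog N354 19947 genes were counted, 7 of the 9 among them; *DRD1* and *DRD4* are not listed by name there, so every value for these receptors rests on N350 alone. Both dogs were normal or wild-type males aged 40 weeks, received no treatment and form the only group, so there was no contrast between conditions. Punches of neuroretina were pretreated with trypsin and taken apart with a neural tissue dissociation kit. The cells were profiled in droplets, where each mRNA molecule receives a unique molecular identifier (UMI) and is counted once. N350 gave 8895 cells and N354 4387 cells with at least 200 genes, from totals of 24030707 and 9711202 UMIs and medians of 1298 and 1204.5 UMIs per cell.

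Dopamine is made in the retina by a sparse population of amacrine cells, which convert tyrosine to L-DOPA with tyrosine hydroxylase (TH) and L-DOPA to dopamine with aromatic L-amino acid decarboxylase (DDC). In brain neurons dopamine is packed into vesicles by the vesicular monoamine transporter SLC18A2 and taken back up by the plasma membrane transporter SLC6A3. The transmitter spreads through the retina and acts on D1-type receptors (DRD1, DRD5), which raise cyclic AMP, and on D2-type receptors (DRD2, DRD4), which lower it. It is known for adapting retinal circuits to bright light.

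Cells were sorted into classes by the UMIs of marker genes of each retinal cell type, none of which is among the 9 genes, and the classes are called rod-like, cone-like and so on. Rod-like cells numbered 5720 in N350 and 3036 in N354, cone-like cells 325 and 174, bipolar-like cells 375 and 296, horizontal-like cells 82 and 11, amacrine-like cells 286 and 29, and Müller-like cells 765 and 450. At least 6 of every class's own markers were higher in it than in all other cells, except in the horizontal-like and astrocyte-like cells of N354 (5 each). Sorting by markers favours this by itself, so it is no independent check of the classes. Median depth differed from 1044 and 1012 UMIs in rod-like cells to 14830 and 14190 in horizontal-like cells, and shares of cells are therefore also given after each cell was thinned to 1000 UMIs, without the shallower cells. A level below is the number of UMIs of a gene per 10000 UMIs of all genes, summed over a class in a dog. Brackets hold exact 95% intervals (Poisson for levels, binomial for shares, conditional for ratios), which cover counting error only. The dogs were counted on different gene annotations, with 15224 shared gene names, so that dog and annotation cannot be told apart. They share 6 cell barcodes.

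*SLC6A3*, the dopamine transporter, was not found in any cell. Its count of 0 allows up to 0.00125 UMIs per 10000 in N350 and 0.00310 in N354. *SLC18A2* had 22 UMIs in N350, each in a different cell, and none in N354. Of these, 10 UMIs lay in rod-like cells, 3 in cone-like cells, 3 in amacrine-like cells and 2 in Müller-like cells, and the level in the amacrine-like cells (0.0141, 0.00290 to 0.0411) overlapped that in the rod-like cells (0.0144, 0.00692 to 0.0265). Rod-like and cone-like cells together were above the other gated classes, by 3.17-fold (1.13 to 10.2), on 13 UMIs against 6. Over the amacrine-like cells as a class, no concentration of either transporter was detectable at this depth. The 2 cells of N350 richest in *TH*, described below, held 2 of the 22 *SLC18A2* UMIs, 9.09% (1.12 to 29.2). They had 0.241% of the UMIs of that dog. This rests on 2 UMIs and was not tested.

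*TH*, the rate-limiting enzyme of dopamine synthesis, was concentrated in very few cells. N350 had 423 UMIs of *TH* in 64 cells, of which 27 held at least 2 UMIs. N354 had 70 UMIs in 6 cells, of which 3 held at least 2. The richest 2 cells of N350 carried 152 and 119 UMIs, together 64.1% (59.3 to 68.6) of all *TH* UMIs of that dog, although they had 0.241% of its UMIs. In N354 the richest 2 barcodes carried 39 and 24 UMIs, together 90.0% (80.5 to 95.9). The next cell held 20 UMIs in N350 and 4 in N354. The richest 2 were picked by their *TH* UMIs, so they lead by choice and their shares only describe them. The 2 barcodes of N354 are counted as 1 cell below. Among rod-like cells, which are not expected to make dopamine, *TH* was found in 0.122% (0.0492 to 0.252) of the cells of N350 (median 1044 UMIs) and in 0 of 3036 in N354, which allows a share of up to 0.0988%. In the amacrine-like cells it was found in 13.3% (9.58 to 17.8) in N350 and in 10.3% (2.19 to 27.4) in N354, with medians of 6247 and 6321 UMIs. Of the 233 *TH* UMIs of the amacrine-like cells of N350 (level 1.09, 0.956 to 1.24), 51.1% came from 1 cell. After thinning, the shares were 3.91% of 279 cells and 0.809%, against 0.113% of 3085 rod-like cells in N350.

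**Figure D1:**
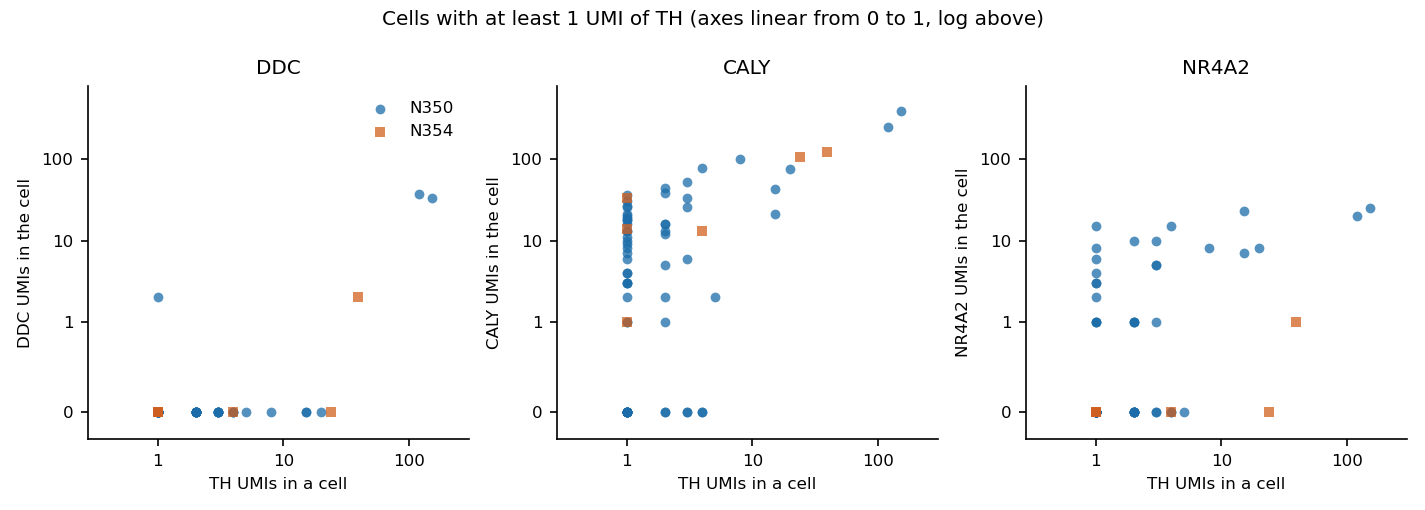
UMIs of *DDC*, *CALY* and *NR4A2* (vertical axes) against UMIs of *TH* (horizontal axes) in every cell with at least 1 UMI of *TH*, on axes that are linear near 0 and logarithmic above; each point is a cell and the dogs have different symbols. The 2 cells of N350 with 152 and 119 UMIs of *TH* held 33 and 37 UMIs of *DDC*, and of the other *TH* cells of that dog 1 held *DDC*, with 2 UMIs.

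The 2 *TH*-rich cells of N350 also carried *DDC*, *CALY* and *NR4A2*. *DDC* had 33 and 37 UMIs, 46.7% (38.5 to 54.98) of the 150 *DDC* UMIs of that dog. *CALY*, the gene of the vesicle protein calcyon, had 390 and 253 UMIs. *NR4A2*, the orphan nuclear receptor (NURR1) needed for midbrain dopamine neurons, had 25 and 20. *DRD1* had 3 and 10 UMIs, *SLC18A2* 1 in each, and *DRD2*, *DRD4* and *SLC6A3* none. The level of *TH* over both cells was 46.7 per 10000, and that of *CALY* was 111. With 30593 and 27432 UMIs the cells were far deeper than the median amacrine-like cell (6247), and 9.02% and 8.75% of their UMIs were mitochondrial. One passed the gate for ganglion cells and the other that for amacrine cells. They held 3 and 5 of the 12 amacrine markers, among them *GAD1*, *TFAP2A* and *MEIS2*, with 13 and 24 UMIs. Markers of ganglion cells had 12 and 9 UMIs (*NEFL* 7 and 4), those of bipolar cells 11 and 3 (*PRKCA* 8 and 3) and those of horizontal cells 7 and 3, so that the first cell held about as many ganglion and bipolar as amacrine UMIs. There were 2 and 3 UMIs over the rod markers, at most 1 over the cone markers and none over the markers of microglia, vascular cells and pigment epithelium. *WFDC2*, one of the astrocyte markers used, was present with 19 and 32 UMIs.

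Cofactor genes were present in both of these cells. Tetrahydrobiopterin, the cofactor of TH, is made and recycled by a set of 6 enzymes and regulators. Of these 6 genes, 5 were found in both cells and 5 had a higher level there than in the 248 amacrine-like cells without *TH*. *GCH1*, the first enzyme of the pathway, had 3 UMIs in each of the cells and none in the 248, and the dog had only 28 in all. *QDPR*, which regenerates the cofactor, had 24 and 20 UMIs (7.58 per 10000 over both cells against 1.33), and *PCBD1*, which takes part in that recycling, had 18 and 11 (4.998 against 0.443). *SPR*, the last enzyme of synthesis, did not share this pattern, with 1 UMI over both cells. These are values of 2 cells of 1 dog and were not tested. The shares of all genes that were found in these deep cells, or higher in them, were not computed. Counts of list genes in these 2 cells, here and below, therefore have no baseline.

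Of 7 genes for the breakdown or further conversion of dopamine, 4 were found in at least 1 of the 2 cells. *MAOB*, a monoamine oxidase, had 2 and 8 UMIs, and *MAOA* 0 and 3. Neither *DBH* nor *PNMT*, which turn dopamine into noradrenaline and adrenaline, was found. Over the genes for other monoamines (*TPH1*, *TPH2*, *HDC*, *SLC18A1*, *SLC6A2*, *SLC6A4* and *SLC7A5*) no UMI was counted in the 2 cells.

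Among 17 genes for cotransmitters of amacrine cells, 6 were found in the 2 cells. *CARTPT*, a neuropeptide precursor, had 73 and 62 UMIs (23.3 per 10000 against 7.98 in amacrine-like cells without *TH*), and *PENK*, the precursor of enkephalins, had 22 and 21 (7.41 against 0.887). *GAD1*, which makes GABA, had 4 and 2 UMIs. *SLC32A1*, the vesicular transporter of GABA and glycine, had 0 and 7, and *TAC1*, the substance P precursor, none. Of 14 vesicle and neuronal genes, 12 were found in both cells and 5 were at a higher level than in the amacrine-like cells without *TH*, led by *SCG2*, a secretory granule protein, with 334 and 204 UMIs (92.7 against 8.29). *CPLX3*, a complexin at 26.1 per 10000 in amacrine-like cells without *TH*, had no UMI in either cell. Of 12 transcription factors known from dopamine neurons or amacrine cells, *NR4A1*, *NR4A3* and *PAX6* were found, with 1 to 3 UMIs per cell, while *LMX1A*, *LMX1B*, *PITX3*, *FOXA1*, *FOXA2*, *EN1* and *EN2* were not. Of 12 genes of dopamine receptor signalling 6 were found and 2 were at a higher level than in the amacrine-like cells without *TH*, and of 8 immediate early genes 5 were found and none was higher.

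**Figure D2:**
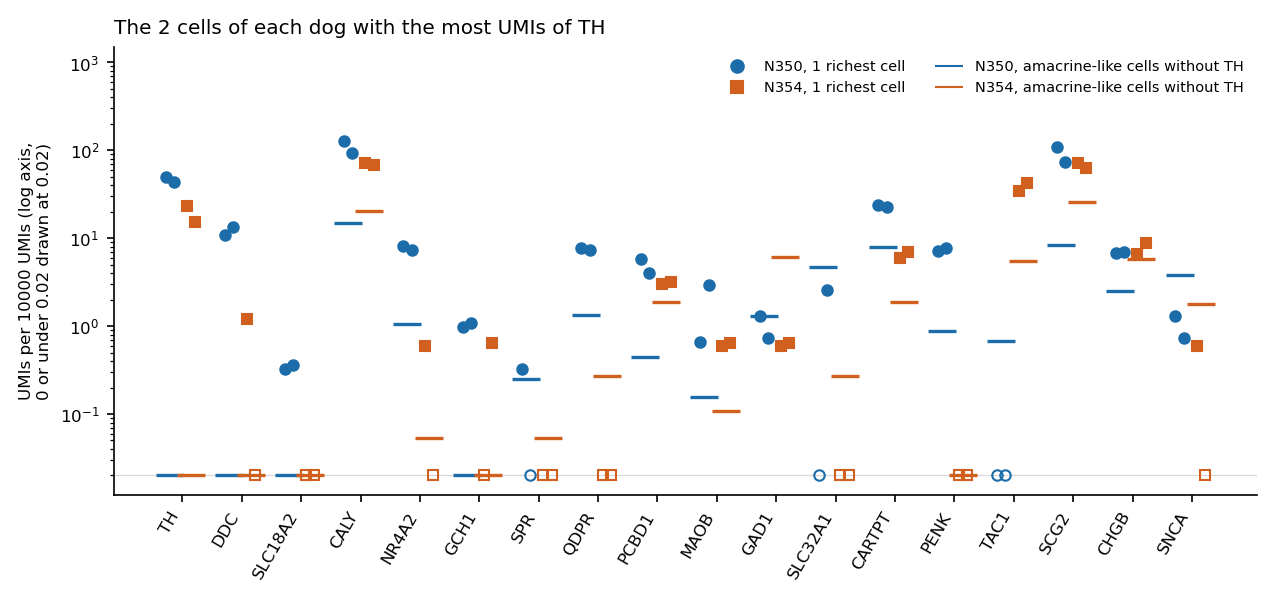
Level (UMIs per 10000 UMIs, logarithmic axis) of genes of the dopamine system and its neighbours in the 2 cells of each dog with the most UMIs of *TH*, beside the amacrine-like cells without *TH*; genes with no UMI are drawn at the foot of the axis. *DDC*, *GCH1* and *PENK*, which are scarce in the whole of N354, stand out in the cells of N350. *TAC1* is high in the barcodes of N354, and *SCG2* is high in both dogs (92.7 in N350 and 67.2 in N354).

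The 2 *TH*-rich barcodes of N354 were read in the same way. *DDC* had 2 and 0 UMIs in them, *NR4A2* 1 and 0, *GCH1* 0 and 1, and *SLC18A2*, *DRD2* and *PENK* none. All but *DRD2* were scarce in the whole of N354, with 5 UMIs of *DDC*, 12 of *NR4A2*, 6 of *GCH1* and 3 of *PENK*. The barcodes held 40.0% (5.27 to 85.3) of its *DDC* UMIs, 8.33% of *NR4A2* and 16.7% of *GCH1*. In the 2 cells of N350 these shares were 46.7%, 8.52% and 21.4%, so the low counts alone show no difference in content. *CALY* had 122 and 107 UMIs, *SCG2* 119 and 99, *TAC1* 58 and 67 and *CARTPT* 10 and 11. In contrast to the cells of N350, they held 404 and 321 UMIs over the 8 markers of Müller glia listed there, with *VIM* at 315 and 254 and *GLUL*, the glutamine synthetase of Müller glia, at 79 and 56. Rod markers had 69 and 64 UMIs. The first passed more than 1 gate and the second was classed Müller-like, their totals were 16781 and 15647 UMIs, and 9.98% and 11.1% of their UMIs were mitochondrial. How far RNA of other cells contributed to these barcodes was not tested.

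These 2 barcodes of N354 did not differ from each other beyond sampling noise. Over 537 genes with at least 10 UMIs in the pair, the chi-square per degree of freedom between them was 1.06, where sampling alone gives 1 with an SD of 0.0611. The lowest value among 2555 other pairs of cells of like depth was 1.198, and the lowest between one of them and the next *TH* cell was 3.81. Their barcodes differ at 13 of 16 letters. Counted as 1 cell, they leave N354 with 2 cells with at least 2 UMIs of *TH*; the class sums and other counts of cells keep both barcodes. For the 2 cells of N350 the value was 1.45 over 1207 genes (SD from sampling 0.0407), and 25 of 594 other pairs had a value as low.

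**Figure D3:**
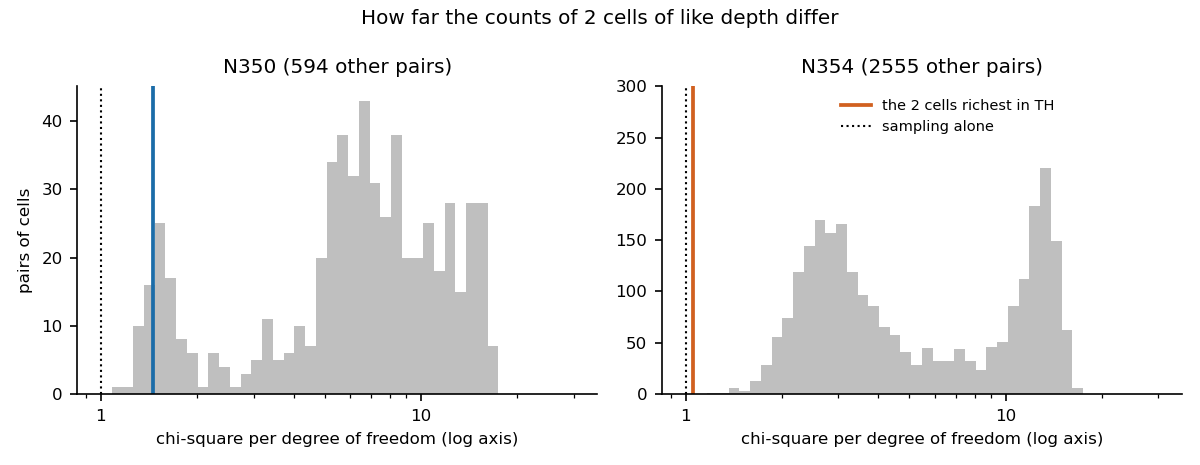
Distribution of the chi-square per degree of freedom between pairs of cells of like depth in each dog (horizontal axis, logarithmic), with the pair of *TH*-rich cells marked by a line. In N354 the marked pair (1.06) lies below all 2555 other pairs, and in N350 (1.45) it lies within the lower end of 594 pairs.

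The other 25 cells of N350 with at least 2 UMIs of *TH* formed a different set. They held 2 to 20 UMIs of *TH* (median 3), 115 in all, and 21 were amacrine-like. *DDC* was not found in any of them. *CALY* was found in 19 (588 UMIs), *NR4A2* in 13 (95 UMIs), *SLC32A1* in 22 (149 UMIs) and *GAD1* in 16 (42 UMIs). *TAC1* was found in 6 (198 UMIs), and all 302 UMIs of *VIP*, the vasoactive intestinal peptide gene, lay in 1 cell. Among cells with at least 2 UMIs of *TH* in N350, *DDC* was therefore seen in the richest 2 alone. The single other cell of N354 held 4 UMIs of *TH*, 13 of *CALY* and none of *DDC*. No test of *TH* cells against other amacrine-like cells was made, since N354 had fewer than 5.

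Genes were ranked in N350 by the ratio of their level in the 27 *TH* cells to that in the 248 amacrine-like cells without *TH*. Ranked were 4781 genes with at least 10 UMIs in the *TH* cells, the 9 dopamine genes left out. The 15 at the top are called most like *TH*, although the ratio does not measure a shared pattern over cells. This choice of cells and genes favours high ratios. Of the 27 cells 22 were amacrine-like, and the part of the other classes in the ratios was not tested. The first, *VIP*, was at least 552-fold higher but came from 1 cell, as did *VWA5A*, at least 27.4-fold higher. The others with more than 1 cell were *CBR3*, a carbonyl reductase, at 98.7-fold (18 UMIs against 1, in 6 cells), *FILIP1* at least 51.2-fold, *CCND2*, a cyclin, at least 42.0-fold, *CBLN4*, a synaptic organiser, at 28.9-fold (248 UMIs in 12 cells), *SLC5A7*, the choline transporter, at least 27.4-fold and *ISL1*, a LIM homeobox factor, at 24.1-fold. Next came *TP53I11*, *RIMS1*, *CHL1*, *HSPA2*, *NRK* and *CLSTN2*, at 14.3-fold to 9.70-fold. None of the 15 had more than 1 UMI in the *TH* cells of N354. In that dog *VIP* had 69 UMIs, *FILIP1* 7, *NRK* 2 and *CHL1* 1 in amacrine-like cells without *TH*, and none in the *TH* cells. *RIMS1* and *CLSTN2* had 1 UMI each in the *TH* cells and none in those amacrine-like cells.

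*DDC*, the second enzyme, was found outside the *TH*-rich cells mainly in glia. In N350 the 94 astrocyte-like cells held 35 UMIs in 26 cells, a level of 0.610 (0.425 to 0.848), against 0.0321 (0.0201 to 0.0486) in the 765 Müller-like cells, a ratio of 19.0 (10.8 to 34.0). The share of cells with *DDC* was 27.7% (18.9 to 37.8) in astrocyte-like cells (median 6379.5 UMIs) and 2.35% (1.40 to 3.69) in the deeper Müller-like cells (median 9138), or 5.79% of 91 and 0.362% of 763 cells after thinning. In N354 astrocyte-like cells held 1 UMI (0.0513, 0.00130 to 0.286) and Müller-like cells 2 (0.00607), a ratio of 8.46 with an interval of 0.143 to 162, so that the difference seen in N350 was not detectable at this depth. These astrocyte-like cells, led by *WFDC2* in both dogs, also carried markers of Müller glia at 111 and 155 UMIs per 10000, against 301 and 463 in the Müller-like cells. All 37 *DDC* UMIs of the amacrine-like cells of N350 came from 1 of the 2 *TH*-rich cells. Rod-like cells held 5 UMIs in N350 and none in N354.

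*CALY* was the most widespread of the genes and marked horizontal-like and amacrine-like cells in both dogs. In N350 every 1 of the 82 horizontal-like cells carried it, with 2 to 78 UMIs per cell and a median of 35, and in N354 all 11 did, with 4 to 150 and a median of 62. The level in horizontal-like cells of N350 was 24.0 (23.1 to 24.9), and that of N354 was 45.4 (42.1 to 49.0), a mean of 34.7 ± 15.2 (SD, n = 2). In amacrine-like cells it was 16.6 (16.1 to 17.2) and 18.8 (17.1 to 20.7), a mean of 17.7 ± 1.57, with *CALY* in 88.1% and 93.1% of cells. Horizontal-like cells were above amacrine-like cells in both dogs, by 1.44-fold (1.37 to 1.52) and 2.41-fold (2.14 to 2.73). After thinning, 88.6% and 98.4% of horizontal-like cells and 63.2% and 68.0% of amacrine-like cells still held *CALY*, against 0.731% and 0.820% of Müller-like cells.

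The 22 ganglion-like cells of N350 were at 23.2 (21.9 to 24.5), with 390 of their 1318 UMIs in 1 *TH*-rich cell, and the rod-like, cone-like, bipolar-like and Müller-like cells had much less *CALY*. Bipolar-like cells were at 0.390 in N350 and 0.256 in N354, and Müller-like cells at 0.0862 and 0.413, where 107 of the 136 UMIs of N354 came from 1 *TH*-rich barcode. Rod-like cells differed between the dogs, where N350 had 0.657 (0.598 to 0.720), N354 had 0.0696 (0.0450 to 0.103) and their ratio was 9.44 (6.31 to 14.7), and cone-like cells by 5.73-fold (2.34 to 18.2). In the rods of N350 the level was 7.62-fold (5.80 to 10.2) that of the Müller-like cells of the same dog.

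Most UMIs of *NR4A2* in N350, 61.9% (57.6 to 66.1), lay in amacrine-like cells. The level in N350 was 1.53 (1.37 to 1.71) in amacrine-like cells, with 327 UMIs in 58 of 286 cells, and 0.0245 to 0.0380 in rod-like, cone-like, bipolar-like, horizontal-like and Müller-like cells. All 58 positive amacrine-like cells also carried *CALY*, and *TH* was found in 36.2% (24.0 to 49.9) of them but in 7.46% (4.40 to 11.7) of the other amacrine-like cells, with medians of 8069 and 5930.5 UMIs. In N354 amacrine-like cells held 1 UMI of *NR4A2* (0.0439, 0.00111 to 0.244), and the level of N350 was 34.9-fold (6.22 to 1380) that of N354. Outside the neurons, 8 of 12 microglia-like cells of N350 held 51 UMIs (9.35, 6.96 to 12.3), with 22 of them in 1 cell. In 10 of 30 vascular-like cells there were 32 UMIs, a level of 1.54. By level, microglia-like cells were thus above amacrine-like cells and vascular-like cells about equal to them. Only 12 UMIs of *NR4A2* were counted in N354, each in a different cell.

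**Figure D4:**
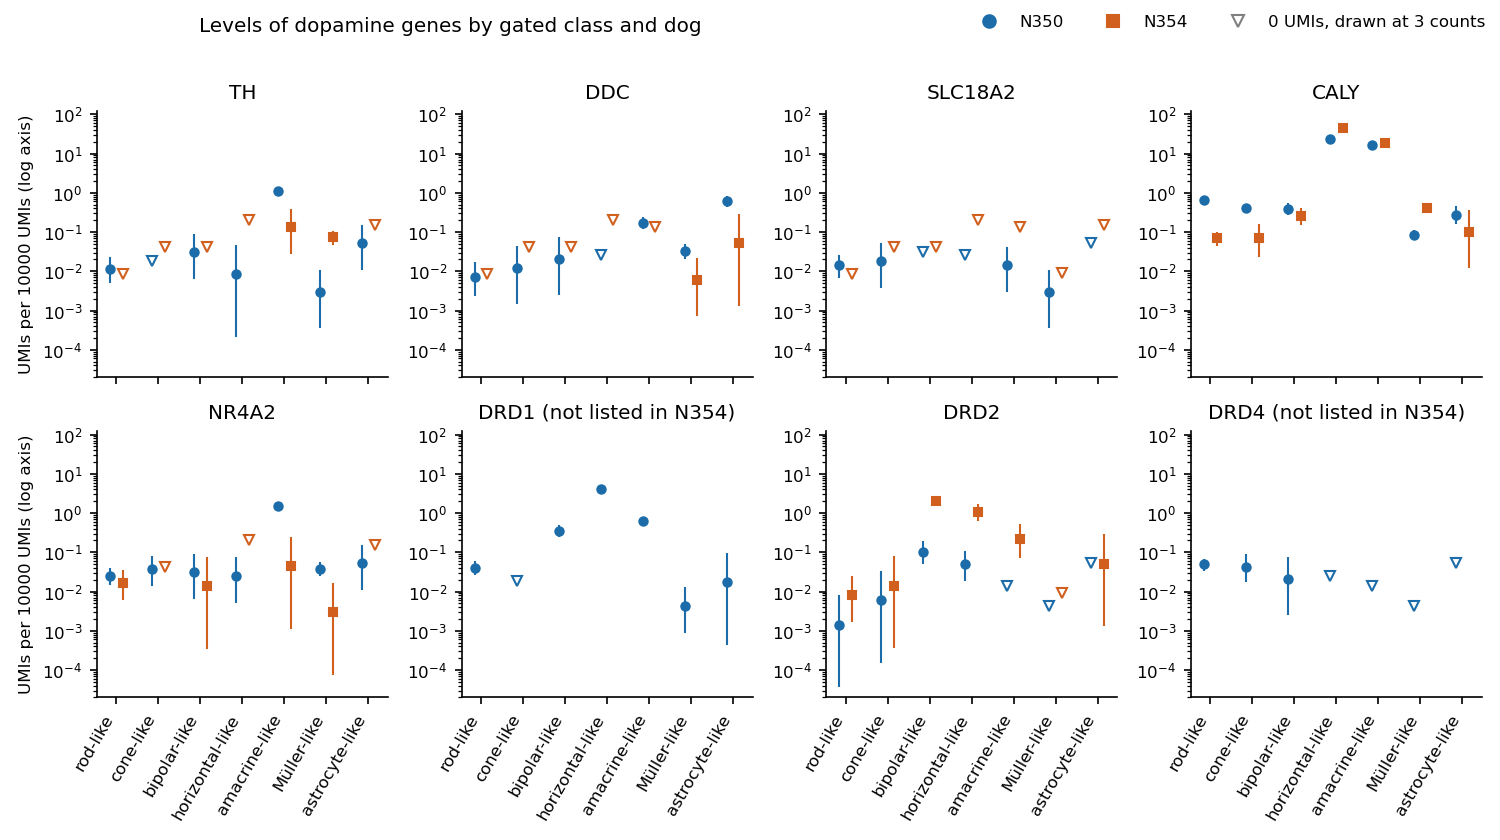
Level (UMIs per 10000 UMIs, logarithmic axis) of 8 dopamine genes in 7 cell classes of each dog, with exact Poisson 95% intervals as bars; triangles mark classes with no UMI, at the level of 3 UMIs. Among the classes drawn, *CALY* is highest in horizontal-like and amacrine-like cells of both dogs, *DRD1* in the horizontal-like cells of N350 (4.08) and *DRD2* in the bipolar-like cells of N354 (1.99). Ganglion-like cells of N350, which are not drawn, were above its amacrine-like cells in *CALY*.

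Receptor genes were found in several classes and shared some of them. *DRD1*, the main D1-type receptor, was highest in horizontal-like cells of N350, with 485 UMIs in 74 of 82 cells and a level of 4.08 (3.73 to 4.46). Cells held 0 to 18 UMIs with a median of 5. Amacrine-like cells followed at 0.642 (0.539 to 0.759), with 137 UMIs in 75 cells, and bipolar-like cells at 0.359 (0.250 to 0.500), with 35 UMIs in 27 cells. These 3 classes differed beyond counting error, since horizontal-like cells were 6.36-fold (5.25 to 7.75) above amacrine-like cells, and bipolar-like cells were at 0.560 (0.375 to 0.817) of the amacrine level. Rod-like cells had 0.0404 (28 UMIs), Müller-like cells 0.00438 (3 UMIs) and cone-like cells none of 1637055 UMIs. After thinning, *DRD1* was found in 31.1% of horizontal-like cells, 4.93% of amacrine-like cells and 3.54% of bipolar-like cells, against 0.318% of rod-like and 0.0655% of Müller-like cells. With cells limited to under 5% of UMIs from the 13 mitochondrial genes, the bipolar level was 0.793, on only 3 UMIs in the 10 bipolar-like cells left. All 74 horizontal-like cells with *DRD1* carried *CALY*, as did the 8 without *DRD1*.

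*DRD5*, the other D1-type receptor and not one of the 9 genes, was in amacrine-like cells of N350 with 126 UMIs (0.590, 0.492 to 0.703), while horizontal-like, bipolar-like and Müller-like cells held 1 UMI each. Among amacrine-like cells it was found in 42.7% (31.3 to 54.6) of those with *DRD1* and in 17.5% (12.7 to 23.4) of those without, with medians of 9665 and 5742 UMIs. The deeper cells are those with *DRD1*, and the part of depth in this difference was not tested. In N354, where *DRD1* is not listed by name, *DRD5* had 1 UMI.

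*DRD2*, the main D2-type receptor, was in bipolar-like cells of both dogs, at very different levels. In N354 these cells held 148 UMIs in 94 of 296 cells (31.8%, 26.5 to 37.4), up to 5 per cell, a level of 1.99 (1.68 to 2.34). In N350 they held 10 UMIs in 10 of 375 cells, a level of 0.103 (0.0492 to 0.189), and the level of N354 was 19.4-fold (10.3 to 41.3) that of N350. Horizontal-like cells differed alike, with 16 UMIs in 7 of 11 cells of N354 (1.07, 0.614 to 1.75) and 6 UMIs in 6 of 82 cells of N350 (0.0505), a ratio of 21.3 (7.91 to 66.4). Horizontal-like cells stood at 0.492 (0.147 to 1.49) of the bipolar-like level in N350 and at 0.540 (0.301 to 0.906) in N354. All 6 horizontal-like cells of N350 with *DRD2* also held *DRD1*, which was found in 74 of the 82. Amacrine-like cells held 5 UMIs in 3 of 29 cells of N354 and none of 2134481 UMIs in N350. No UMI of *DRD2* was found in the Müller-like cells of either dog, which puts bipolar-like cells at least 23.4-fold higher in N350 and at least 219-fold higher in N354. After thinning, 17.3% of bipolar-like cells of N354 and 0.895% of those of N350 held *DRD2*. The *TH*-rich cells held none in either dog.

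The receptors were then read in subsets of the bipolar-like cells, drawn after the values had been seen. Cells with at least 3 UMIs of *GRM6*, *TRPM1* and *ISL1*, markers of ON bipolar cells, and none of *GRIK1*, a marker of OFF bipolar cells, numbered 207 in N350 and 225 in N354. *DRD2* in them stood at 0.132 (0.0569 to 0.260) for N350 against 2.15 (1.78 to 2.57) for N354, and in the 54 remaining cells of N354 it stood at 2.11 (1.40 to 3.05). Cells with at least 2 UMIs of *GRIK1* and fewer than 3 of the ON markers numbered 26 and 17, and held no *DRD2*, with an upper bound of 0.507 in N350 and 0.694 in N354, so that the subsets differed beyond counting error in N354 but not in N350. *DRD1* was higher in the *GRIK1* cells of N350, with 18 UMIs in 12 of the 26 *GRIK1* cells (2.47, 1.47 to 3.91) and 3 UMIs among the 207 ON-marker cells (0.0494, 0.0102 to 0.144). *CALY* was unequal in N354, with 10 UMIs in 6 of the 17 *GRIK1* cells (1.88, 0.902 to 3.46) and none in the 225 ON-marker cells. In N350 the intervals overlapped, with 8 UMIs in the *GRIK1* cells (1.10, 0.475 to 2.17) and 26 in the ON-marker cells (0.428, 0.280 to 0.627).

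**Figure D5:**
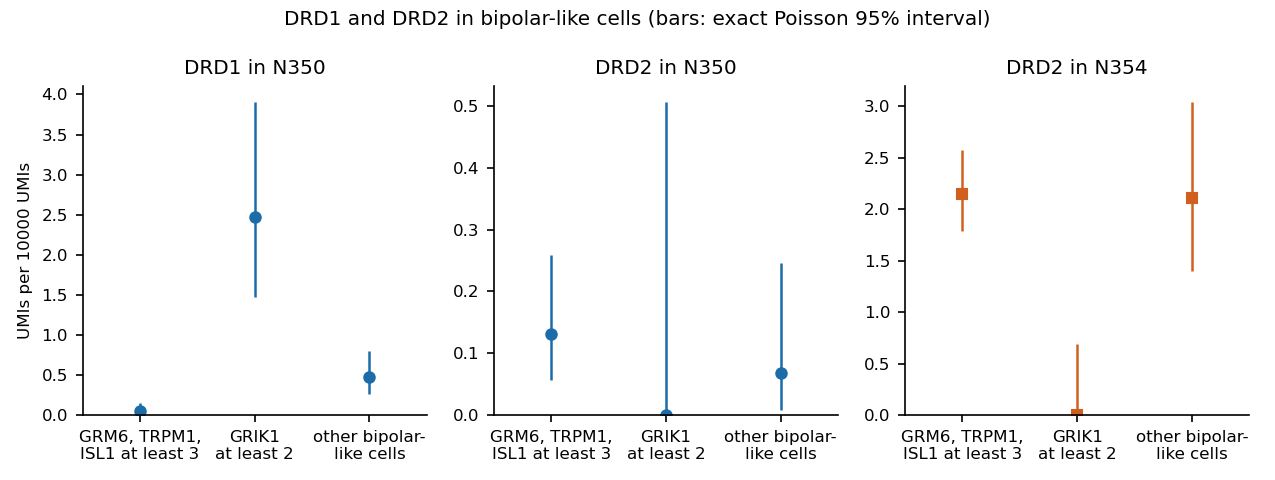
Level (UMIs per 10000 UMIs) of *DRD1* in N350 and of *DRD2* in N350 and N354 in bipolar-like cells with ON markers, with *GRIK1* and others, with exact Poisson 95% intervals. *DRD1* is highest in the 26 *GRIK1* cells of N350 (2.47), where *DRD2* has no UMI, and *DRD2* is at 2.15 in the 225 ON-marker cells of N354.

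*DRD4*, a D2-type receptor known from photoreceptors, was sparse and lay in rod-like and cone-like cells of N350. Rod-like cells held 34 UMIs in 32 of 5720 cells (0.0491, 0.0340 to 0.0686) and cone-like cells 7 UMIs in 7 of 325 (0.0428, 0.0172 to 0.0881), and these levels did not differ beyond counting error (ratio 0.872, 0.326 to 1.997). All other gated classes together held 2 UMIs, both in bipolar-like cells, so that photoreceptor-like cells were 30.03-fold (7.80 to 256) above the pool. The bipolar-like level of 0.0205 (0.00249 to 0.0742) overlapped those of rod-like and cone-like cells. None was found in 6847355 UMIs of Müller-like cells or in amacrine-like or horizontal-like cells. *AANAT*, the melatonin enzyme of photoreceptors that is under dopaminergic control, was at 0.0563 and 0.0891 in rod-like cells, 0.153 and 0.183 in cone-like cells and, beyond the photoreceptors, at 0.154 and 0.269 in bipolar-like cells.

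Classes were then compared over dogs with Müller-like cells as reference. UMIs were summed per dog and class and tested with the quasi-likelihood test of edgeR with the dog as a block, over 11917 genes, and p-values were adjusted by Benjamini-Hochberg. Of the 9 genes, 6 could be tested, because *DRD1* and *DRD4* are listed in 1 dog and *SLC6A3* had no UMI. Horizontal-like cells were not tested, since N354 had only 11. The members were proposed with these data known, so that the tests describe them and are not independent evidence. In amacrine-like cells 4 of the 6 were higher, where 18.6% of all genes were higher and 21.7% lower (40.3% in all). *CALY* rose by 5.28 on the log2 scale (SE 0.684, adjusted p = 2.73e-06 by edgeR), and in both dogs (6.88 in N350 and 4.54 in N354). *NR4A2* rose by 4.50 (SE 0.565, adjusted p = 1.79e-06 by edgeR), also in both dogs, although N354 had 1 UMI in each class. *TH* rose by 3.71 (SE 0.975, adjusted p = 0.00466 by edgeR), which rested on N350 (7.22), while N354 was at -0.11 and had 24 UMIs of its Müller-like cells in 1 *TH*-rich barcode. *DRD2* passed with an adjusted p = 0.00315 by edgeR on the 5 UMIs of N354, since N350 had none in either class. *DDC* was at 1.52 (SE 0.636, adjusted p = 0.0627 by edgeR), and without the 2 *TH*-rich cells of each dog no *DDC* was left in amacrine-like cells, which were then called lower (adjusted p = 0.00592 by edgeR). *SLC18A2* had an adjusted p = 0.483 by edgeR. The call for *TH* was also lost in DESeq2 (adjusted p = 0.519). Without the block only *CALY* was called (adjusted p = 0.0386 by edgeR).

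In bipolar-like cells *DRD2* was the only one of the 6 genes called higher (adjusted p = 2.64e-08 by edgeR, in both dogs), and none was called lower, where 15.6% of all genes were higher and 20.9% lower (36.5% in all). In rod-like cells *DDC* fell by 2.81 on the log2 scale (SE 0.763, adjusted p = 0.00398 by edgeR), in both dogs, although N354 had 0 UMIs against 2, and no other of the 6 was called, where 24.8% of all genes were higher and 29.4% lower (54.2% in all). Both calls were lost without the block, with adjusted p = 0.0668 and 0.350 by edgeR. *CALY* in rod-like cells was at -0.16 (SE 0.664), higher in N350 (2.33) and lower in N354 (-2.91), and without the *TH*-rich cells it was at 1.34 (adjusted p = 0.0277 by edgeR). In cone-like cells none of the 6 was called against Müller-like cells (17.1% of all genes higher, 24.0% lower, 41.1% in all), with adjusted p from 0.0755 for *DRD2* upwards by edgeR. None was called between cone-like and rod-like cells either (8.65% higher, 7.86% lower, 16.5% in all), where adjusted p ran from 0.609 upwards by edgeR. There 52.4% of the calls over all genes were higher with TMM factors, 63.0% with RLE factors and 66.6% in DESeq2.

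Genes around the dopamine system were described through lists chosen with earlier results known. Over all genes, 18.6% were higher and 21.7% lower in amacrine-like cells, and 15.6% and 20.9% in bipolar-like cells. The shares were 24.8% and 29.4% in rod-like cells, and 17.1% and 24.0% in cone-like cells. No list was tested against these shares. Of 12 genes of dopamine receptor signalling, amacrine-like cells had 7 higher and 1 lower than Müller-like cells, with a median log2 difference of 1.42 against -0.04 over all genes. *GNAL*, the G protein that couples D1-type receptors to adenylyl cyclase in the striatum, was 3.25 higher (SE 0.527), *GNAO1*, the major Go subunit, 1.86 higher (SE 0.332) and *ARRB2*, an arrestin, 2.12 higher (SE 0.456), while *ADCY5*, an adenylyl cyclase, fell by 2.09 (SE 0.517), and *PPP1R1B* (DARPP-32), a phosphatase inhibitor downstream of D1 receptors, was at 0.68 (SE 0.372) and did not pass. In bipolar-like cells 5 of the 12 were higher and 4 lower, with *GNAO1* at 4.04 (SE 0.338), and in rod-like cells 3 were higher and 7 lower, with *RGS9*, a regulator of G protein signalling in photoreceptors, at 3.80 (SE 0.371). Here *GNAO1* stood at 20.1 and 8.38 per 10000 in bipolar-like cells and at 0.281 and 0.0223 in rod-like cells.

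None of the 6 tetrahydrobiopterin genes passed in amacrine-like cells (median -0.22), whereas 5 of 6 were lower in rod-like (median -1.65) and in cone-like cells (median -1.59). In those 2 classes 29.4% and 24.0% of all genes were lower. Of 6 tested genes for breakdown and conversion, 2 were higher (*ALDH1A1* at 2.82, SE 0.468, and *PNMT* at 3.50, SE 0.815) and 1 lower in amacrine-like cells, and 5 of 6 were lower in rod-like cells (median -3.13). *DBH*, the noradrenaline enzyme, was higher in bipolar-like cells on 5 and 6 UMIs, where Müller-like cells had none, but it was not called in DESeq2. *DRD5* was higher in amacrine-like cells, by 7.50 (SE 0.844), where Müller-like cells held 1 UMI over both dogs. Of 3 tested genes for other monoamines, 1 was higher in amacrine-like cells (*SLC6A4*, the serotonin transporter, on 10 UMIs in 4 cells of N350, where N354 and Müller-like cells had none) and 1 in cone-like cells (*TPH1*, an enzyme of serotonin and melatonin synthesis, 0.403 and 1.31 per 10000, at 0 in Müller-like cells). Higher calls were not limited to these classes, with 2 of the 3 genes in rod-like and 1 in bipolar-like cells. In DESeq2 rod-like cells kept 1 of these calls and amacrine-like cells 0. For breakdown and conversion, amacrine-like cells had 1 higher call in DESeq2, and for transcription factors 1 higher and 1 lower. Of 10 tested cotransmitter genes 9 were higher in amacrine-like cells (median 5.07, and 5 genes in DESeq2). *GAD1*, *GAD2*, *SLC32A1* and *SLC6A9* of that list are also amacrine markers, so a higher level of these may follow from the sorting into classes. All 13 vesicle and neuronal genes were higher too (median 5.03). Among 5 tested transcription factors 2 were higher (*EBF1* and *EBF3*, at 3.28 and 3.33, in N350 alone) and 2 lower, namely *NR4A1* (-3.83, SE 0.433) and *NR4A3* (-3.07, SE 0.623), the relatives of *NR4A2*. All 7 immediate early genes tested, which include *NR4A1*, were lower in amacrine-like (median -4.05), rod-like (median -4.39), cone-like (median -4.42) and bipolar-like cells (median -4.48) than in Müller-like cells. Of the 7 genes linked to the photoreceptor D4 receptor, 2 were higher and 2 lower in rod-like cells, with *AANAT* at 3.83 (SE 0.680) and *NPAS2*, a clock factor, at -3.57 (SE 0.740). These counts lie near the shares of all genes there, 24.8% higher and 29.4% lower.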

How the data were processed

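Single-cell RNA-seq of neuroretina from 2 dogs was used. The authors aligned reads with Cell Ranger (version 6.0.2 per the file headers) to canFam6 and deposited UMI counts per gene and cell, without normalization. Whether intronic reads were counted is not given in the sources used here. Repeated gene names (17 in N354) were summed.

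Cells with at least 200 genes were kept, and no mitochondrial limit was set, because the 5% limit of the study on names that start with MT- leaves 1369 of 4387 cells of N354 and none of its cone-like cells. It removes no cell of N350. A cell passed a gate with at least 5 UMIs over at least 3 gate markers of a type. The gate markers were not all the same as the marker lists counted in Results. Counts over those lists therefore do not show which gates a cell passed. Where the horizontal gate was passed, the amacrine gate was not counted. Where several gates still applied, the highest had to exceed the next 3-fold. Otherwise the cell is described as passing more than 1 gate (64 and 22 cells). Remaining cells with at least 2% of UMIs on rod markers were rod-like, and 1120 and 315 stayed unclassed. The 9 genes and all gene lists were chosen with earlier results of these data known. Genes named are the 9, at most 5 per list by rule, and the 15 most like *TH*, except 2 of all these genes, which are not reported here; *DRD5*, *SLC6A9*, the bipolar subsets and any further list genes were picked with their values in view. Levels are UMIs per 10000, with exact intervals at 95%, and a count of 0 was read as allowing 3 counts. Doublets were scored by Scrublet in scanpy 1.11.5. Its own threshold marked 0% and 0.0912%, so removing the top 4% (356 and 175 cells) was an alternative.

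Sums per dog and class with at least 20 cells in both dogs, genes with at least 10 UMIs, were tested in edgeR 4.0.16 (R 4.3.3) by glmQLFTest with TMM, the dog as a block and Benjamini-Hochberg adjustment at 0.05. Sums of a dog come from 1 animal and are paired. Deviations of its classes from class means correlated from 0.571 to 0.816 (median 0.689, 6 classes, 11917 genes). Tested on simulated data for amacrine over Müller glia (11205 genes), 126 of 200 genes made to differ by 2 on the log2 scale were recovered (63%), with 9 false calls. The simulated class differences were alike in both dogs, whereas those of *CALY* and *TH* differed between the dogs in some real comparisons. The number of false calls in the real data is therefore not shown by it. DESeq2 1.42.0, RLE factors, no filter, a stricter gate and leaving out a dog were alternatives. Python 3.11.15, numpy 2.4.6, scipy 1.17.1 and pandas 2.3.3 were used.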

Additional observations from a re-analysis of the deposited data

Results flagged for a closer look

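*CALY* appeared in cells outside all comparisons above, namely those that no gate classed. The level was 6.40 (6.07 to 6.74) in the 1120 unclassed cells of N350, of which 363 were positive (32.4%), and 8.23 (7.48 to 9.04) in the 315 of N354, of which 77 were positive (24.4%). Both levels lie above the limit that a count of 0 allows, and between those of amacrine-like and bipolar-like cells. At least 3 UMIs were found in 189 and 60 of these cells (median totals of 2971 and 2151 UMIs), with *IGFBP5* and *ATP1B1* among their leading genes in both dogs. *SLC6A9*, the glycine transporter of glycinergic amacrine cells, was found in 64 and 22 of them, and *EBF3* in 101 and 6. What these cells are was not tested.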

How the results depend on the processing

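Beside one-dog values, 297 alternative values were computed and 261 counted as unchanged. A log2 difference had to keep both its direction and its side of the threshold. A count of called genes had to stay within a set ratio of the main count, and levels were judged by the spread. With 1 dog left out, 38 of 57 values counted as unchanged, by direction and spread. Leaving out 1 of 2 dogs returns the value of the other dog, and the spread comes from the same 2 values. That count therefore reflects mainly whether the signs agree and does not measure stability. The block decided the counts: without the replicate block 1632, 1000, 925, 908 and 114 genes were called in rod, cone, bipolar and amacrine over Müller glia and cone over rod, against 6463, 4900, 4347, 4802 and 1968 with it. Members called then fell from 1, 1 and 4 to 0 in rod-like, 0 in bipolar-like and 1 in amacrine-like cells (adjusted p by edgeR 0.317 for *TH*, 0.137 for *NR4A2* and 0.252 for *DRD2*). With no filter, 2 members were called in rod-like cells. Without the 2 *TH*-richest cells of each dog, chosen after seeing the data, 2 were called there, and over Müller glia *TH* turned to 1.21 in rod-like and 2.47 in bipolar-like cells, *CALY* to 1.34 (adjusted p = 0.0277 by edgeR), 1.01 and 1.29 in rod-like, cone-like and bipolar-like cells, and *DDC* to -6.27 in amacrine-like cells. *DDC* there was called with RLE factors (adjusted p = 0.0483) and the stricter gate (0.0280, both by edgeR). In DESeq2 *NR4A2* in rod-like cells was at 0.24 and *TH* in amacrine-like cells had an adjusted p of 0.519. Leaving out a dog gave -0.11 to 7.22 for *TH* in amacrine-like cells. Against TMM, DESeq2 moved the all-gene median from 0.02 to -0.09 in rod over Müller glia and from -0.16 to 0.02 in cone over rod, and called fewer genes of some lists. With a mitochondrial limit by MT- names or over 13 genes (the latter added after seeing the data), *CALY* in amacrine-like cells had a mean over dogs of 24.4 and 24.9, with only 4 such cells in N354, and N354 kept 0 cells with at least 2 UMIs of *TH* under either. The limit by MT- names kept all 8895 cells of N350, so that only N354 changed under it. With the 13 genes N350 kept 15 cells with at least 2 UMIs of *TH*. Its *DRD1* was then at 3.34 in horizontal-like cells (44 UMIs in 8 cells) and at 0.793 in bipolar-like cells (3 UMIs in 10 cells). At least 1 and at least 3 UMIs of *TH* gave 64 and 16 cells in N350, and at least 1 gave 6 barcodes in N354. Under either limit no class comparison could be fitted, since only rods had 20 cells in both dogs, and N354 kept 1 bipolar-like cell, with no *DRD2*. N354, with 29 amacrine-like and 11 horizontal-like cells, limits every value there.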
